A study of Homo sapiens with 4 samples.

Results

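The NF-κB subunit genes and the genes that hold the pathway in check were examined by RNA-seq in a VHL-null renal carcinoma line with and without restored VHL. The 10 genes were chosen by symbol: the subunits NFKB1, NFKB2, REL, RELA and RELB, the inhibitors NFKBIA, NFKBIB, NFKBIE and TNFAIP3, and the kinase IKBKE. Of these, 9 were among the 12912 genes of the deposited count table and all 9 could be tested. NFKBIB had no entry in that table, so only its promoter was examined. The line, 786-O, derives from clear cell renal carcinoma. Its control subline, 786-O-Ctrl (genotype label wild type, VHL-null), was compared with 786-O-VHL (genotype label VHL restoration), which received HA-tagged VHL through a retroviral vector. Both are triple-reporter cells that stably carry GFP, luciferase and thymidine kinase, and both grew untreated in RPMI1640 with serum. Each group is 1 subline with 2 libraries, called control and restored libraries here. Nothing states that they came from separate cultures, so p values measure the spread between libraries, which may be technical.

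NF-κB is a family of dimeric transcription factors built from RELA, REL, RELB and the processed products of NFKB1 (p105 to p50) and NFKB2 (p100 to p52). In resting cells the dimers are held in the cytoplasm by IκB proteins such as IκBα, encoded by NFKBIA, until the IKK complex phosphorylates the inhibitor and marks it for ubiquitination and degradation. NFKBIA and TNFAIP3, which encodes the ubiquitin-editing enzyme A20, are textbook NF-κB target genes that feed back on the pathway. The study followed the NFKB2 protein as a candidate substrate of VHL, and the mRNA of these genes is a companion measure to that question. Protein levels were not analysed here.

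Because several of these genes are known NF-κB targets themselves, their promoters are shown first. RefSeq promoter windows of GRCh38.p14 were found for 8 of the 10 genes, 13 windows in all for different transcript starts, and RELB and NFKBIE had none. The 250 bases before each start were searched on both strands for the κB consensus, the recognition motif of NF-κB dimers. ACGTG, a form of the core of the HIF response element, was searched in the same way. GCGTG, another form, was not searched, although it can be read in the windows of NFKB1, NFKB2 and REL printed below. It can also be read in windows of RELA and NFKBIB, which are not printed. The ACGTG counts therefore do not cover all forms of the element. The κB consensus occurred in 7 of the 13 windows, in 6 of the 8 genes (NFKB1, NFKB2, REL, NFKBIA, NFKBIB and TNFAIP3), against 5.21% of all 35116 windows in the table. RELA and IKBKE had no match in these windows. ACGTG occurred in 1 of the 13 windows, that of TNFAIP3, against 18.5% of all windows. A match is a string of letters, and occupancy was not measured. The windows of 5 genes with a match, and that of IKBKE as one without, read 5′ to 3′ on the strand of the gene and end at the base before the start, with matches to the κB consensus on either strand in capitals.
NFKBIA (chr14:35404750-35404999, minus strand): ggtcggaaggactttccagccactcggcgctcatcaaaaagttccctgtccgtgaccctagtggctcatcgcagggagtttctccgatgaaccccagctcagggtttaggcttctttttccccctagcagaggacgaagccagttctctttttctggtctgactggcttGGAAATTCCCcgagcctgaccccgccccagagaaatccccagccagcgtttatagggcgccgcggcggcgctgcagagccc
TNFAIP3 (chr6:137867009-137867258, plus strand): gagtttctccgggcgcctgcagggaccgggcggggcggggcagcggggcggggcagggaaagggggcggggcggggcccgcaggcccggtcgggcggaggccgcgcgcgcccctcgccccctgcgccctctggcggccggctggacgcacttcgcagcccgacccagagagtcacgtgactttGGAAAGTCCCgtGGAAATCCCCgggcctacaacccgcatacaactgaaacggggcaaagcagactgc
NFKB1 (chr4:102501109-102501358, plus strand): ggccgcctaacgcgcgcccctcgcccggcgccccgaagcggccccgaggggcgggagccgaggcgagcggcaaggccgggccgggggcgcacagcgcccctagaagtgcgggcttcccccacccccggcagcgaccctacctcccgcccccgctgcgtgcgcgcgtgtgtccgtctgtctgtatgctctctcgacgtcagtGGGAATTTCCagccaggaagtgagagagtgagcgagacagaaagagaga
NFKB2 (chr10:102394328-102394577, plus strand): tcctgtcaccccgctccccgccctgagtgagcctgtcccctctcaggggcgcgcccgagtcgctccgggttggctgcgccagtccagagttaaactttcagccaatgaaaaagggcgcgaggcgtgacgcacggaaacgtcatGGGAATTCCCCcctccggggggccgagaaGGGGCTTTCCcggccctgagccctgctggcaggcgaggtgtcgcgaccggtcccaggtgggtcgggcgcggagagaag
REL (chr2:60881324-60881573, plus strand): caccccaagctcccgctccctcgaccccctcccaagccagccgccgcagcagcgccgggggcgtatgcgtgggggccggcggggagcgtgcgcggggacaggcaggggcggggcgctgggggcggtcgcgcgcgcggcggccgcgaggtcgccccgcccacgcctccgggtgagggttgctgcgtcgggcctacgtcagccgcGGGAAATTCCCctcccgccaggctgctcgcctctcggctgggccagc
IKBKE (chr1:206470226-206470475, plus strand): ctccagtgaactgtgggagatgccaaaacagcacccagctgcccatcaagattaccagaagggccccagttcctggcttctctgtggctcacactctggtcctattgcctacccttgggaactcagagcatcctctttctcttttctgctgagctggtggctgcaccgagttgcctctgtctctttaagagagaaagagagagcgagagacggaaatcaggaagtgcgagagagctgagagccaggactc
In NFKBIA the match was GGGAATTTCC on the opposite strand, between 81 and 72 bases before the start. NFKB1 carried the same letters, GGGAATTTCC, on its own strand between 49 and 40 bases before the start. In TNFAIP3, GGGACTTTCC lay between 67 and 58 bases and GGGGATTTCC between 55 and 46 bases before the start, both on the opposite strand. The ACGTG matches of TNFAIP3 lay on both strands and overlapped, between 78 and 73 bases before the start. Matches that overlap, as in NFKB2 and REL, are printed as runs longer than the consensus.

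The libraries held between 2807779 and 22141263 counts, with restored replicate 1 the shallowest, and mitochondrial genes took between 1.79% and 2.62% of them. The control columns share a replicate number and are told apart by their depth. Levels are given as CPM, counts scaled by library size with edgeR's TMM factors. VHL mRNA was at 42.9 and 43.9 CPM in the controls and at 178 and 163 CPM in the restored libraries. That rise is in the direction of their labels. VHL reads were also present in the VHL-null controls, for whose VHL gene the paper gives a frameshift mutation. A gene on the opposite strand shares 23.5% of the exon bases of VHL. Of 12 renal and epithelial markers, 7 fell (58.3%) and 1 rose (8.33%), against 31.9% lower and 32.6% higher over all genes tested. Their summed level was 4012 to 4040 CPM in the controls and 2577 to 2718 CPM in the restored libraries. VIM, which like CDH2 is also a mesenchymal marker, held the largest part of that sum. VIM was at 1669 and 1699 CPM in the controls and at 751 and 709 CPM in the restored libraries. The keratin genes KRT8 and KRT19 fell to 67.9% and 77.2% of their control levels by the fit. PAX8 and PAX2 were present in every library but fell, PAX8 to 53.6% of its control level by the fit. MME fell to 4.81%, whereas CDH6 rose to 137%. KRT18, CDH2, ANPEP and AQP1, the last near 1 CPM, did not pass the test described below. Of 11 blood, endothelial and stromal markers, PTPRC, CD3E, CD79A, VWF, CDH5 and DCN had no entry in the table used here. The other 5 summed to 11.6 to 11.7 CPM in the controls and 15.1 to 16.6 CPM in the restored libraries. PDGFRB alone passed the test and rose, while LUM and COL1A1 lay higher in both restored libraries without passing. The part of these markers in the results was not tested.

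Most of the measured genes were lower after VHL restoration. By edgeR's quasi-likelihood test, adjusted after Benjamini-Hochberg over all 12335 genes tested (FDR), 6 of the 9 fell at an FDR under 0.05 and 0 rose. That is 66.7% lower, against 31.9% of all genes tested that were lower, 32.6% that were higher and 64.5% that changed in either direction. The genes were chosen with earlier results of these data known, so this contrast is a description and not a test. NFKB1, NFKB2, RELA, NFKBIA, TNFAIP3 and IKBKE fell, whereas REL, RELB and NFKBIE did not pass. The median log2 fold change of the 9, restored over control, was -0.37, against 0.02 over all genes tested. In bulk libraries fewer cells with a transcript and less of it per cell cannot be told apart.

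**Figure D1:**
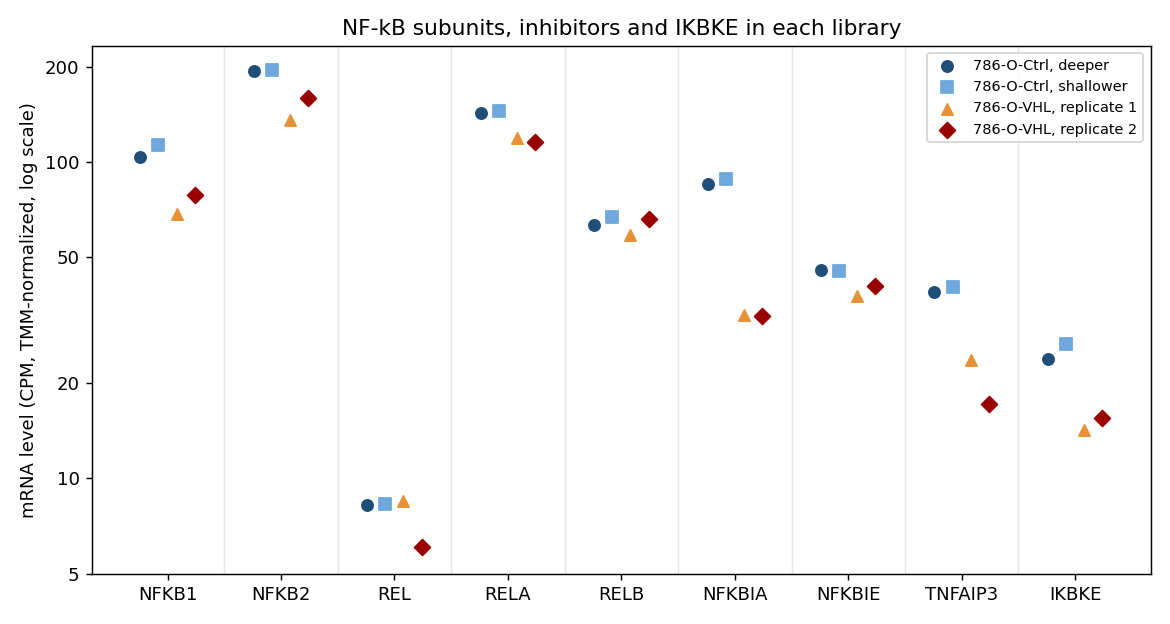
mRNA level of each gene in CPM (TMM-scaled, log axis), with 1 point per library. NFKBIA, TNFAIP3, IKBKE, NFKB1, NFKB2, RELA and NFKBIE lay lower in both restored libraries than in either control, while REL and RELB overlapped. The share of all genes tested that lay apart in this way was not counted, but separation was common in the 4 pathway lists described below. Of 17 other inhibitors tested, 8 lay lower and 9 higher in both restored libraries. The numbers were 9 and 9 of 32 kinases and adaptors, 4 and 7 of 15 receptors, and 19 and 15 of 39 target genes.

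Among the subunits, NFKB1, NFKB2 and RELA fell and RELB stayed close to its control level. NFKB1 (ENSG00000109320.13, chromosome 4 of GRCh37 from 103422487 to 103538459, plus strand) encodes the p105 precursor of p50. Its level was 104 CPM in the deeper and 113 CPM in the shallower control library, and 68.5 and 78.6 CPM in restored replicates 1 and 2. Both restored libraries lay below both controls (log2 fold change -0.51, SE 0.0742, edgeR FDR = 7.86e-07).

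NFKB2 (ENSG00000077150.20, chromosome 10 of GRCh37 from 104153867 to 104162281, plus strand), the p100 precursor of p52 in the noncanonical branch, was at 195 and 196 CPM in the controls, which lay close together, and at 136 and 159 CPM in restored replicates 1 and 2. The groups did not overlap (log2 fold change -0.37, SE 0.0689, edgeR FDR = 3.32e-05), and the fit put the restored level at 77.4% of the control. The 95% interval of the log2 fold change, like all intervals here not adjusted for the number of genes, ran from -0.51 to -0.23. Scaling by library totals alone gave -0.24 for NFKB2, still past the threshold. NFKB2 rested on 400 to 4097 counts per library, and no annotated gene overlaps it.

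RELA (ENSG00000173039.19, chromosome 11 of GRCh37 from 65421070 to 65430561, minus strand), the p65 subunit of the canonical dimer, was at 143 and 145 CPM in the controls and at 119 and 116 CPM in the restored libraries. The spread within each group was small beside the gap between them (log2 fold change -0.30, SE 0.0653, edgeR FDR = 0.000204). With library totals alone it was -0.17 (edgeR FDR = 0.0236).

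RELB (ENSG00000104856.14, chromosome 19 of GRCh37 from 45504719 to 45541450, plus strand), the partner of p52, was at 63.2 and 67.1 CPM in the controls and at 58.7 and 66.2 CPM in the restored libraries. The libraries of the groups interleaved. The log2 fold change was -0.02 with a 95% interval from -0.17 to 0.14 (edgeR FDR = 0.868), and its sign changed with the scaling and with the libraries used.

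REL (ENSG00000162924.14, chromosome 2 of GRCh37 from 61108626 to 61158747, plus strand) encodes c-Rel, known best from lymphocytes, and had the lowest counts of the members. It was at 8.26 and 8.31 CPM in the controls and at 8.48 and 6.06 CPM in restored replicates 1 and 2. Replicate 1 lay above both controls on 25 counts and replicate 2 below them on 102. The log2 fold change was -0.34 with a 95% interval from -0.75 to 0.08 (edgeR FDR = 0.148). It was 0.03 without restored replicate 2 and -0.45 without restored replicate 1, where it passed the threshold (edgeR FDR = 0.0475). Annotated genes on the same strand share 33.3% of its exon bases, so its reads could have been split.

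The inhibitors NFKBIA and TNFAIP3 had the largest changes of the 9 genes. NFKBIA (ENSG00000100906.10, chromosome 14 of GRCh37 from 35870285 to 35873955, minus strand) was at 85.1 and 88.7 CPM in the controls and at 32.9 and 32.6 CPM in the restored libraries. The restored libraries lay close together although they held 97 and 549 counts. The fit put their level at 37.6% of the control (log2 fold change -1.41, SE 0.0809, edgeR FDR = 8.12e-15), and 464 of all genes tested (3.76%) had a lower log2 fold change. No annotated gene overlaps NFKBIA.

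TNFAIP3 (ENSG00000118503.15, chromosome 6 of GRCh37 from 138188351 to 138204451, plus strand) was at 38.9 and 40.3 CPM in the controls and at 23.7 and 17.2 CPM in the restored libraries. The restored libraries differed from each other more than the controls did, but both lay below them. The fit put their level at 47.0% of the control (log2 fold change -1.09, SE 0.118, edgeR FDR = 4.68e-09), and 842 genes (6.83%) had a lower log2 fold change. A gene on the opposite strand, which the library kit cannot separate, shares 1.47% of its exon bases.

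NFKBIE (ENSG00000146232.16, chromosome 6 of GRCh37 from 44225903 to 44233525, minus strand) encodes IκBε, another cytoplasmic inhibitor. It was at 45.5 and 45.1 CPM in the controls and at 37.7 and 40.6 CPM in the restored libraries. Both restored libraries were below both controls, but the log2 fold change of -0.19 (SE 0.0883) did not pass after adjustment (edgeR FDR = 0.0682). With RLE factors in place of TMM it reached the threshold (edgeR FDR = 0.05).

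IKBKE (ENSG00000263528.8, chromosome 1 of GRCh37 from 206643819 to 206670222, plus strand) encodes IKKε, a kinase related to TBK1 that acts in NF-κB and interferon signaling and is itself inducible by NF-κB. It was at 23.9 and 26.5 CPM in the controls and at 14.2 and 15.6 CPM in the restored libraries. The groups did not overlap (log2 fold change -0.72, SE 0.127, edgeR FDR = 1.69e-05), and 1658 genes (13.4%) had a lower log2 fold change. TBK1 was at 24.9 and 26.1 CPM in the controls and at 25.1 and 28.9 CPM in the restored libraries, with a 95% interval of the log2 fold change from -0.09 to 0.36 (edgeR FDR = 0.296). TBK1 passed only with library totals alone (log2 fold change 0.27, edgeR FDR = 0.0366), and the difference between both kinases was not tested. A gene on the opposite strand shares 4.12% of the exon bases of IKBKE.

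**Figure D2:**
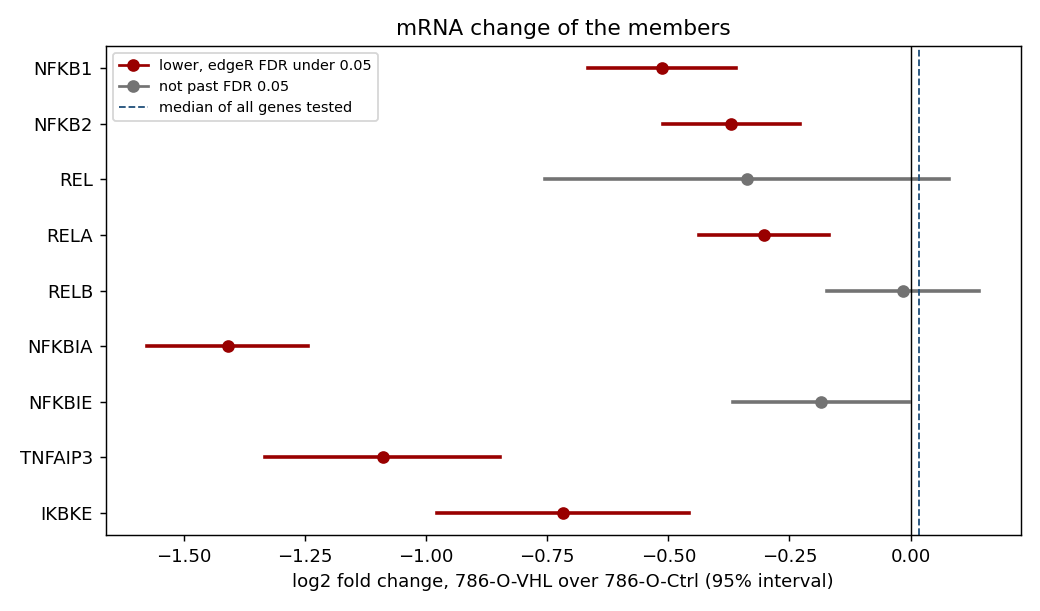
Log2 fold change of each gene, restored over control, with its unadjusted 95% interval from edgeR. Points in red passed an FDR of 0.05, and the intervals of NFKBIA and TNFAIP3 lie below those of all 5 subunits.

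The composition of the subunit mRNA was compared per length, as CPM per kb of the canonical transcript of each gene. Summed over the 5 subunits, the level was 176 and 181 CPM per kb in the controls and 136 and 148 CPM per kb in the restored libraries, or 79.6% of the control on average. In the controls NFKB2 was highest at 64.7 ± 0.258 CPM per kb, before RELA at 57.3 ± 0.528, RELB at 28.8 ± 1.21, NFKB1 at 26.8 ± 1.56 and REL at 0.746 ± 0.00284 (SD, n = 2 each). There the gap between RELB and NFKB1 was smaller than the sum of their SDs. After restoration the order was the same, with NFKB2 at 48.8 ± 5.42, RELA at 46.7 ± 1.03, RELB at 27.7 ± 2.36, NFKB1 at 18.1 ± 1.76 and REL at 0.654 ± 0.154 CPM per kb (SD, n = 2 each). Here the gap between NFKB2 and RELA was within the sum of their SDs, and that between RELB and NFKB1 was not.

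As a share of the subunit sum, RELB took 15.9% and 16.4% in the controls and 19.1% and 19.8% in the restored libraries, a mean difference of 3.29 percentage points. NFKB1 took 14.6% and 15.4% in the controls and 12.4% and 13.1% in the restored libraries. Both gaps were larger than the spread between libraries, but with 2 libraries against 2 the smallest p of a two-sided exact permutation test is 0.333, which is the value for RELB, NFKB1 and NFKB2. NFKB2 took 36.7% and 35.9% in the controls and 33.1% and 35.6% in the restored libraries. The share of RELA was 34.9% and 31.1% in the restored libraries, on either side of its control shares of 32.4% and 31.9%.

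**Figure D3:**
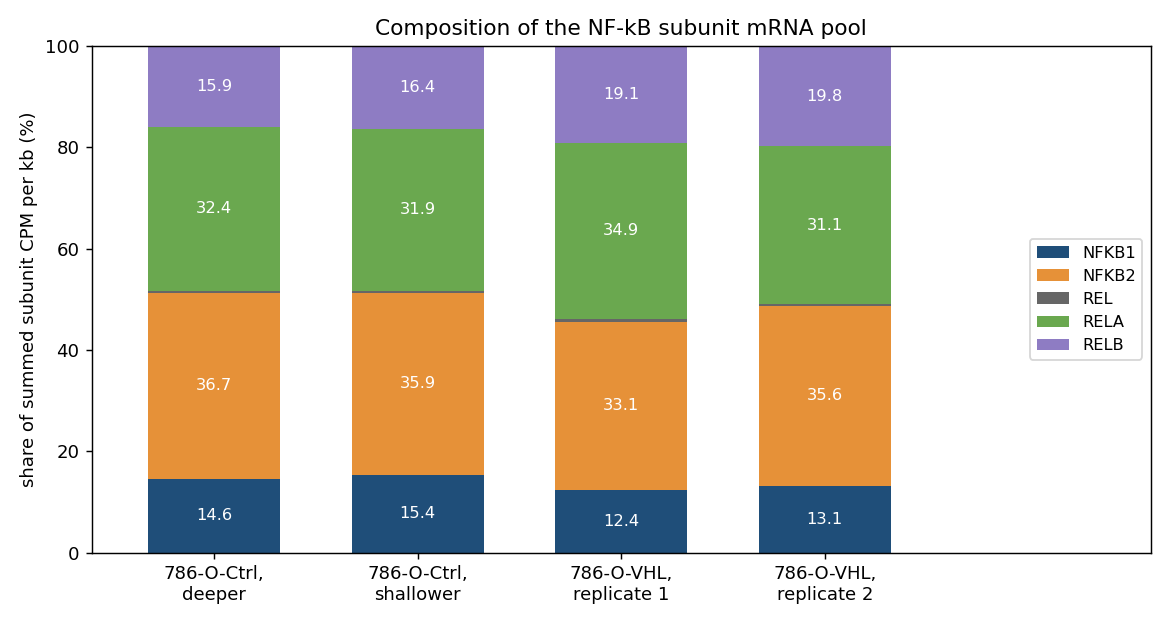
Share of each subunit in the summed CPM per kb of the 5 subunits (percent), with 1 stacked bar per library. RELB takes 19.1% and 19.8% in the restored libraries against 15.9% and 16.4% in the controls, and REL is a thin band in each.

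On the same per-length scale, NFKBIA was at 55.7 ± 1.61 CPM per kb in the controls, where its gap to RELA was within the sum of their SDs, and at 21.0 ± 0.138 CPM per kb after restoration, where it lay below RELB. NFKBIE was at 19.3 ± 0.111 in the controls and 16.7 ± 0.876 CPM per kb after restoration, the latter within the SDs of NFKB1. TNFAIP3 was at 8.49 ± 0.202 and 4.39 ± 0.989 CPM per kb in the respective groups (SD, n = 2 each), and IKBKE lay next to it in each, within the sum of their SDs. These levels rest on the canonical transcripts, and other isoforms would change them.

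The rest of the pathway was described through 4 lists, in which genes moved in both directions. These lists too were chosen with earlier results of these data known. Of 18 other inhibitors and nuclear IκB proteins, 17 were tested, of which 7 rose (41.2%) and 4 fell (23.5%), against 32.6% and 31.9% over all genes tested. Their median log2 fold change was 0.07, against 0.02 over all genes. TNIP1, a partner of A20 that binds polyubiquitin, was at 426 and 432 CPM in the controls and at 206 and 188 CPM in the restored libraries (log2 fold change -1.14, edgeR FDR = 8.57e-15). NFKBID, a nuclear IκB protein, fell (log2 fold change -1.50) on 4 and 37 counts in the restored libraries. ZC3H12A, an RNase that degrades inflammatory mRNAs, fell with a log2 fold change of -0.50, a call that was lost without restored replicate 2 (edgeR FDR = 0.0697). In the other direction CYLD, a deubiquitinase that restrains IKK activation, was at 37.1 and 32.0 CPM in the controls and at 64.8 and 67.1 CPM in the restored libraries (log2 fold change 0.93, edgeR FDR = 2.41e-10). TAX1BP1, an adaptor of A20, rose by 0.63 and NFKBIZ, which encodes the nuclear protein IκBζ, by 0.62 on the log2 scale.

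Of 33 kinases and adaptors upstream, 32 were tested, of which 8 rose and 8 fell (25% each, against 32.6% and 31.9% over all genes tested), and their median log2 fold change was -0.04. The number that rose was 4 with DESeq2 and 5 without the deeper control library. The catalytic IKK subunits did not pass the test. CHUK, which encodes IKKα, was at 35.8 and 39.3 CPM in the controls and at 34.6 and 36.3 CPM in the restored libraries, with a 95% interval of the log2 fold change from -0.26 to 0.14. IKBKB, which encodes IKKβ, had an interval from -0.12 to 0.31. IKBKG, which encodes the regulatory subunit NEMO, was at 22.7 and 18.1 CPM in the controls and at 8.82 and 7.48 CPM in the restored libraries (log2 fold change -1.41, edgeR FDR = 1.72e-08). Its level is uncertain, since a near-identical pseudogene can take part of its reads.

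MAP3K14, which encodes the NIK kinase that starts the processing of NFKB2, was at 110 and 97.9 CPM in the controls and at 119 and 130 CPM in the restored libraries (log2 fold change 0.28, edgeR FDR = 0.00133). This call was lost with DESeq2 (adjusted p = 0.0521), without the shallower control library (edgeR FDR = 0.161) and without restored replicate 2 (edgeR FDR = 0.137), and a gene on the opposite strand shares 15.1% of its exon bases. IRAK1 and RIPK1, kinases below the interleukin and TNF receptors, fell with log2 fold changes of -0.72 and -0.58. RBCK1, which encodes the HOIL-1 subunit of the linear ubiquitin ligase, was at 347 and 355 CPM in the controls and at 793 and 818 CPM in the restored libraries (log2 fold change 1.20, edgeR FDR = 4.25e-16). TBKBP1, an adaptor of TBK1, and MALT1, a paracaspase, rose with log2 fold changes of 1.13 and 0.81.

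Of 18 receptors, 15 were tested, of which 7 rose (46.7%) and 3 fell (20%), against 32.6% and 31.9% over all genes tested, and their median log2 fold change was 0.27. TNFRSF11A, the receptor RANK, and CD40 fell with log2 fold changes of -1.12 and -0.70 (edgeR FDR = 3.83e-08 and 6.58e-07). TLR3, the sensor of double-stranded RNA, was at 6.98 and 6.65 CPM in the controls and at 15.9 and 18.9 CPM in the restored libraries (log2 fold change 1.41, edgeR FDR = 1.31e-08). The interleukin receptor genes IL18R1 and IL1R1 rose with log2 fold changes of 0.76 and 0.74.

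**Figure D4:**
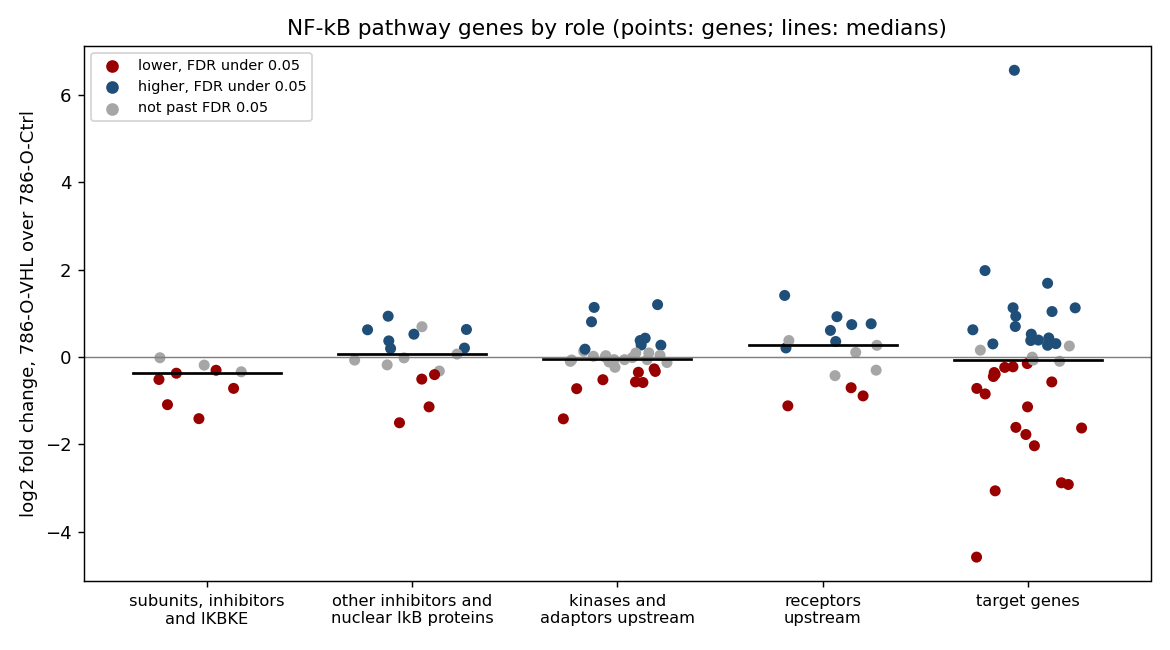
Log2 fold change, restored over control, of each tested gene (points) among the members and in 4 lists of pathway genes, with the median of each as a line. The members hold no gene that rose, while the target genes spread from -4.58 (BCL2A1) to 6.56 (LCN2), both resting on 1 count in the lower group.

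The textbook NF-κB target genes moved in both directions. Of 47, 39 were tested, of which 18 fell (46.2%) and 16 rose (41%), against 31.9% and 32.6% over all genes tested, and their median log2 fold change was -0.07. BIRC3, TRAF1, TNIP1, NFKBIZ, BCL3 and CYLD are on this list and on another one. CCL2, a monocyte chemoattractant, was at 3.51 and 4.32 CPM in the controls and at 0.678 and 0.416 CPM in the restored libraries (log2 fold change -3.06, edgeR FDR = 9.82e-07). CSF2, which encodes GM-CSF, fell in the same way (log2 fold change -2.91, edgeR FDR = 4.27e-08), and both genes rested on 2 to 12 counts in the restored libraries. BCL2A1, a BCL2 family survival gene, had 50 counts over the control libraries and 1 over the restored libraries, a ratio per depth of 0.0365 (95% interval from 0.000906 to 0.213, counting error only), and its call was lost without restored replicate 2 (edgeR FDR = 0.0535).

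More abundant targets moved in both directions as well, and CXCL8, ICAM1, VCAM1 and KLF6 were picked after their values were seen. CXCL8, the neutrophil chemokine interleukin 8, was at 78.1 and 91.4 CPM in the controls and at 12.3 ± 1.78 CPM (SD, n = 2) in the restored libraries, a fall of more than the spread of either group (log2 fold change -2.88, edgeR FDR = 1.91e-18). ICAM1, an adhesion molecule, was at 198 and 201 CPM in the controls and at 61.1 and 65.9 CPM in the restored libraries (log2 fold change -1.62, edgeR FDR = 1.8e-17), and genes on the opposite strand share 25.4% of its exon bases. VCAM1, another adhesion molecule, was at 223 and 248 CPM in the controls and rose to 595 and 401 CPM in the restored libraries (log2 fold change 1.04, edgeR FDR = 4.74e-10). KLF6, a zinc finger transcription factor, rose with a log2 fold change of 0.70 (edgeR FDR = 1.22e-10).

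The largest rises on this list were those of LCN2, IRF1 and GADD45B. LCN2, which encodes lipocalin 2, had 1 count over the control libraries and 69 over the restored libraries, a ratio per depth of 126 (95% interval from 21.9 to 5044, counting error only). Without restored replicate 2 it was below the filter on low counts and was not tested, and the fitted log2 fold change was 5.47 without the deeper and 8.54 without the shallower control library, the latter against 0 counts. IRF1, a transcription factor shared with interferon signaling, was at 63.7 and 74.7 CPM in the controls and at 261 and 278 CPM in the restored libraries (log2 fold change 1.98, edgeR FDR = 4e-19). Genes on the opposite strand share 22.9% of its exon bases. GADD45B, a stress gene that restrains JNK signaling, was at 122 and 138 CPM in the controls and at 325 and 486 CPM in the restored libraries (log2 fold change 1.69, edgeR FDR = 2.41e-14).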

How the data were processed

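Bulk RNA-seq of 2 control libraries (786-O-Ctrl) and 2 restored libraries (786-O-VHL) was examined. The authors aligned reads to hg19 and deposited raw counts per gene for 12912 genes. STAR and CASAVA are named in the submitters' processing notes, whereas the sources used here do not name the counting tool, its strand setting or its annotation, and the library kit named in the labels does not mark strand. Samples were grouped by title. Both control columns carry replicate number 1, so neither was assigned to a numbered sample.

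Counts were tested with edgeR 4.0.16 (R 4.3.3): filterByExpr at a minimum count of 10 left 12335 genes, followed by TMM scaling, the quasi-likelihood F test on group alone, and Benjamini-Hochberg adjustment. Standard errors derive from the F statistic. The library totals are given with the results. A count of 0 allows up to 3 counts, or between 0.142 and 1.02 CPM by library. Intervals of count ratios are exact binomial ones. The code was tested on simulated data. Coordinates, exon overlaps and canonical transcript lengths come from the GENCODE annotation of GRCh37, in which 12749 identifiers were found, and promoter windows from RefSeq on GRCh38.p14. The lists of members and pathway genes, and their tests, were chosen with earlier results of these data known. Of each of the 4 pathway lists, at most 3 genes per direction were named, those with the largest change past an FDR of 0.01 without overlap between groups, besides the members, VHL, CHUK, IKBKB, IKBKG, MAP3K14 and TBK1. CXCL8, ICAM1, VCAM1 and KLF6 were named outside this rule, as were the renal, epithelial, blood, endothelial and stromal markers given by name. Alternatives were DESeq2 1.42.0, limma-voom (limma 3.58.1), RLE factors, library totals alone, no filter on counts, at least 10 counts in every library, each library left out in turn, and an FDR of 0.01.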

Additional observations from a re-analysis of the deposited data

How the results depend on the processing

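Under the 11 alternatives, 6 or 7 of the 9 members were lower and 0 were higher at an FDR under 0.05 (0.01 where that was the alternative). The 6 members called lower were past FDR 0.05 under each of the 10 alternative fits, with log2 fold changes from -1.44 to -1.28 for NFKBIA, -1.20 to -0.74 for TNFAIP3, -0.82 to -0.58 for IKBKE, -0.66 to -0.38 for NFKB1, -0.53 to -0.24 for NFKB2 and -0.32 to -0.17 for RELA. The seventh was NFKBIE with RLE factors (edgeR FDR = 0.05) or REL without 786-O-VHL replicate 1. Scaling by library totals alone moved the median of all genes to a log2 fold change of 0.15 and the split of calls from 4017 higher and 3939 lower to 5077 and 3097, and it turned RELB to 0.12 and CHUK to 0.074. With each library left out, where the lone library of a group is assumed to vary like the others, RELB ranged from -0.15 to 0.027, REL from -0.45 to 0.029, IKBKB from -0.18 to 0.17 and TBK1 from -0.026 to 0.18. Of the kinases and adaptors, 4 rose with DESeq2 and 5 to 8 with a library left out, the 5 without the deeper control library. ZC3H12A (edgeR FDR = 0.0697) and BCL2A1 (edgeR FDR = 0.0535) were not past the threshold without 786-O-VHL replicate 2. The difference in share was -1.30 percentage points for NFKB1 and 4.18 for RELB with the union of all exons as length, an alternative chosen after seeing the data, and 0.21 for REL without division by length. The causes were not tested. No paired analysis was possible because both control columns carry the same replicate number. Among the members, REL had the fewest counts, 25 in 786-O-VHL replicate 1.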
